A study of Homo sapiens with 24 samples.

Results

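Tetracycline induction was examined within 1 engineered human cell line, labelled RPRD1B_FL. The comparison rests on 4 of the 24 samples of the series: RPRD1B_FL_TET (2 samples, tetracycline for 48 h) and RPRD1B_FL (2 samples, untreated), chosen by their titles and condition labels. Tetracycline itself was given to the parent line in FLP_TET (2 samples, 48 h) against untreated FLP (2 samples), which supplied the background for every change reported. All 8 samples are of the human embryonic kidney line Flp-In T-REx 293, which expresses a tetracycline repressor, so that a gene inserted at a single recombination site is transcribed after tetracycline is added. The labels do not explain FL and do not give the promoter, the number of clones or a tag, and nothing says that the samples of a group were separate cultures. The p-values therefore measure the spread between these samples, which may be technical. The other 16 samples are HEK293T cells given small interfering RNAs (siRNAs), and they are used here only as an outside readout.

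RPRD1B (also called CREPT), RPRD1A and RPRD2 are human relatives of yeast Rtt103. Each carries a CTD-interaction domain, which binds the phosphorylated heptad repeats at the tail of the largest subunit of RNA polymerase II. RPRD1A and RPRD1B can form homodimers and heterodimers with each other through coiled coils and help recruit the RPAP2 phosphatase to the polymerase. RPRD1B has been linked to transcription of cell cycle genes such as cyclin D1 and to Wnt signalling in tumour cells. The series was set up to ask how the RPRD proteins affect the amount of RNA present at steady state.

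Reads came from the 3′ ends of polyadenylated RNA (QuantSeq 3′ REV libraries). The 8 samples held 2342969 to 3531106 counts in genes, with 16816 to 17763 genes detected, and 3 counts corresponded to 0.85 to 1.28 CPM (counts scaled to TMM library sizes). Of 10 marker genes of 293 cells, 9 passed the filter on low counts, among them VIM, KRT8, KRT18, KRT19 and NEFL. Of 13 markers of blood, endothelium, fibroblasts and liver, 8 had any count and 1, COL1A1, passed the filter. The RPRD1B_FL line differed from the parent before any treatment: CEBPE, a myeloid transcription factor, was at 114 and 96.8 CPM in FLP and had 0 counts in all 4 libraries of the RPRD1B_FL line, which allows up to 1.01 to 1.28 CPM. The replicates of RPRD1B_FL_TET were the least alike, with a chi-square per degree of freedom of 6.02 across genes against 2.79 in RPRD1B_FL, 2.01 in FLP_TET and 4.54 in FLP. The RNA is from bulk cultures, so induction in fewer cells and less RNA per cell cannot be told apart.

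Induction gave no gene past the threshold. Of 11948 genes tested, 0 (0%) had an adjusted p under 0.05 for RPRD1B_FL_TET against RPRD1B_FL in edgeR's quasi-likelihood test with Benjamini-Hochberg adjustment, and DESeq2 also called 0. At an unadjusted p under 0.05, edgeR gave 733 genes (6.13%), of which 352 were higher (2.95%) and 381 lower (3.19%), and DESeq2 gave 301. Without the second RPRD1B_FL_TET library the count of calls was 74 (49 higher, 25 lower), so that 1 library decides it. The difference between the tetracycline effects of both lines likewise gave 0 calls (0%) by both tools, with 477 genes (3.99%; 2.50% above 0 and 1.49% below) at an unadjusted p under 0.05 in edgeR and 175 in DESeq2. Both the effect in RPRD1B_FL and the difference had an unadjusted p under 0.05 for 33 higher (0.276%) and 41 lower genes (0.343%). In the parent line, tetracycline changed 122 genes (1.02%; 27 higher, 0.226%, and 95 lower, 0.795%) in the same fit. That count was 0 without either FLP_TET library or without the first FLP library, and DESeq2 called 250 (136 higher, 114 lower). None of the genes described below as higher or lower in RPRD1B_FL_TET passed the adjusted threshold in the fit of all 8 samples.

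RPRD1B, the gene that the line is named for, lies on chr20:38033546-38127780 (plus strand, GRCh38, GENCODE 29). It stood at 43.2 and 43.8 CPM in RPRD1B_FL and at 83.9 and 64.6 CPM in RPRD1B_FL_TET. In the parent line it was at 34.6 and 34.1 CPM without tetracycline and at 29.5 and 29.2 CPM with it. Both induced libraries thus lay above the other 6, and the parent's treated libraries lay below its untreated ones. The log2 fold change was 0.77 in RPRD1B_FL (SE 0.18, 1.71-fold, adjusted p = 0.401 and unadjusted p = 3.7e-04, edgeR) and -0.23 in the parent (SE 0.20). The difference of the effects was 1.00 (SE 0.27, unadjusted p = 0.00125, adjusted p = 0.991, edgeR). Over 13 alternatives the log2 fold change of RPRD1B in RPRD1B_FL stayed between 0.57 and 0.95. The largest value came without the second RPRD1B_FL_TET library, which left 1 library in the induced group. Reads of an inserted RPRD1B are counted under this name only where they fall in the annotation used for counting, so these values need not hold all RNA of the insert. TGM2, which overlaps RPRD1B on the opposite strand, stayed between 0 and 1.47 CPM in the 8 libraries.

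RPRD1A, the closest paralog of RPRD1B, went the other way. It was at 45.6 and 44.2 CPM in RPRD1B_FL and at 25.4 and 24.4 CPM in RPRD1B_FL_TET, the lowest of the 8 libraries. In the parent line it was at 61.6 and 47.4 CPM without tetracycline and at 55.5 and 52.1 CPM with it, so that the parent's groups overlapped. The log2 fold change was -0.85 in RPRD1B_FL (SE 0.21, 1.80-fold lower, unadjusted p = 4.45e-04, adjusted p = 0.443, edgeR) against -0.01 in the parent (SE 0.18), and the difference was -0.84 (SE 0.27, unadjusted p = 0.00583, adjusted p = 0.991, edgeR). The parent's value changes sign with the processing, between -0.20 and 0.31 over 13 alternatives, whereas the value in RPRD1B_FL stayed between -0.88 and -0.63. RPRD1A lies on chr18:35984387-36067576 (minus strand), and none of the 5 tested genes on each side of it, nor of the 5 on each side of RPRD1B, had an unadjusted p under 0.05 with induction. No gene annotated in GENCODE 29 overlaps RPRD1A.

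RPRD2, the larger member of the family (chr1:150363091-150476566, plus strand), was at 59.3 and 60.4 CPM in RPRD1B_FL and at 69.5 and 71.9 CPM in RPRD1B_FL_TET. The parent line showed the same pattern, with 62.3 and 60.7 CPM without tetracycline and 72.3 and 75.3 CPM with it. The log2 fold changes were 0.24 (SE 0.17) and 0.26 (SE 0.16), a difference of -0.02 (SE 0.23). The 3 paralogs therefore had 3 patterns: RPRD1B was higher with induction in its own line, RPRD1A was lower in that line, and RPRD2 was higher with tetracycline in both lines, none of them past the adjusted threshold.

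**Figure D1:**
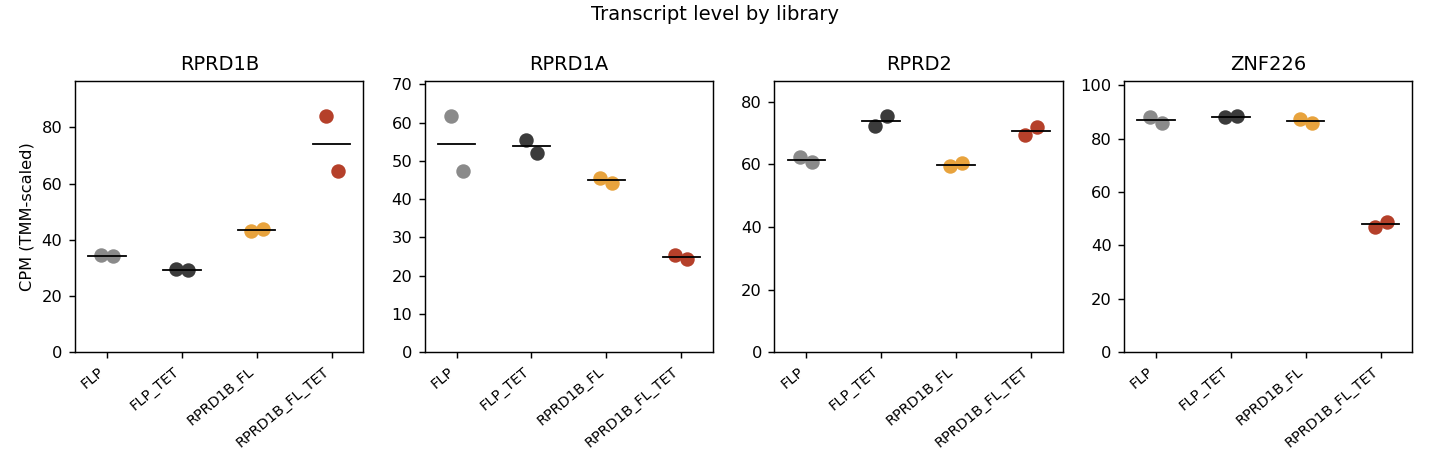
Level of RPRD1B, RPRD1A, RPRD2 and ZNF226 in each of the 8 Flp-In T-REx 293 libraries, in CPM on a linear axis from 0; dots are libraries and lines are group means. RPRD1B is highest and RPRD1A and ZNF226 are lowest in the 2 RPRD1B_FL_TET libraries, while RPRD2 is higher with tetracycline in both lines.

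In HEK293T cells, where RPRD1B was lowered instead of raised, RPRD1A was also lower. Under RPRD1B_KD, the siRNA group for RPRD1B, RPRD1B had a log2 fold change of -1.77 against control siRNA (SE 0.42, adjusted p = 1, edgeR; 0.0468 with the replicate number as a block). The value of RPRD1A was -0.77 (SE 0.22, unadjusted p = 0.00286, adjusted p = 1, edgeR; 0.471 with the block). RPRD1A was thus lower both with RPRD1B silenced and with RPRD1B_FL induced, in neither case past the adjusted threshold in these fits. Under RPRD1A_KD, RPRD1B differed little (log2 fold change -0.16, SE 0.37).

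To describe changes that the parent line does not show, genes were ordered by the p of the difference of effects among those whose RPRD1B_FL_TET and RPRD1B_FL libraries did not overlap and whose effect in RPRD1B_FL had the sign of the difference and exceeded the parent's. Libraries did not overlap for 1864 genes that were higher (15.6%) and 2017 that were lower (16.9%). All conditions together were met by 773 higher (6.47%) and 825 lower genes (6.90%), and the first 10 of each are described. These values chose the genes, so they are given without support drawn from them. RPRD1B and RPRD1A are among them.

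ZNF226, a gene of the KRAB zinc finger repressor family on chr19:44165073-44178381, headed the lower genes and had the most even libraries of the set. It was at 87.4 and 85.8 CPM in RPRD1B_FL and at 46.9 and 48.8 CPM in RPRD1B_FL_TET. In the parent line all 4 libraries lay between 86.0 and 88.3 CPM, so that only the induced libraries stood apart. The log2 fold change was -0.86 (SE 0.17, 1.81-fold lower, unadjusted p = 3.75e-05, adjusted p = 0.149, edgeR) against 0.02 (SE 0.15) in the parent, a difference of -0.87 (SE 0.23, adjusted p = 0.991, edgeR). Over the alternatives its adjusted p in RPRD1B_FL ranged from 0.0353 to 1, and it was called without a filter on low counts and without the second RPRD1B_FL_TET library. No annotated gene overlaps ZNF226.

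Next among the lower genes were AHCTF1, which encodes the nuclear pore protein ELYS, and AATK, a neuronal kinase. AHCTF1 was at 16.2 and 15.5 CPM untreated and at 9.68 and 7.70 CPM induced, while the parent's treated libraries (12.7 and 13.7 CPM) lay above its untreated ones (10.6 and 8.60 CPM). AATK was at 27.4 and 21.7 CPM untreated and at 12.5 and 17.1 CPM induced, against 24.4 and 27.2 CPM and then 32.2 and 29.6 CPM in the parent. Both therefore had effects of opposite sign in the 2 lines, as did AARS, the cytosolic alanyl-tRNA synthetase and an ATF4 target (log2 fold change -0.50, SE 0.19, against 0.23, SE 0.18). SESN1, a p53-induced sestrin that restrains mTORC1, was at 41.8 and 49.4 CPM untreated and 30.5 and 37.7 CPM induced, and its parent libraries were at 30.3 and 30.2 CPM without and 36.0 and 37.8 CPM with tetracycline. The remaining 4 were ERRFI1, an inhibitor of the EGF receptor, RSPRY1, LHFPL4 and AC008736.1, with log2 fold changes between -1.08 and -0.59 in RPRD1B_FL. AHCTF1, ERRFI1 and AC008736.1 met the minimum mean of 10 CPM only through their untreated RPRD1B_FL group. In each of AHCTF1, AARS, ERRFI1, RSPRY1, SESN1, LHFPL4 and AC008736.1 the untreated RPRD1B_FL mean was above the untreated FLP mean, so the lines started from different levels.

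The higher genes began with FITM2, which encodes an endoplasmic reticulum protein needed for lipid droplet formation. It was at 8.78 and 5.53 CPM in RPRD1B_FL and at 17.9 and 14.1 CPM in RPRD1B_FL_TET, whereas in the parent it was at 11.3 and 14.1 CPM without and 9.44 and 7.94 CPM with tetracycline. The log2 fold changes were 1.16 (SE 0.31, adjusted p = 0.641, edgeR) and -0.56 (SE 0.29). Their difference, whose p ordered the set, was 1.72 (SE 0.43, unadjusted p = 5.78e-04, adjusted p = 0.991, edgeR). FITM2 lies at 44302838 to 44311169 on chromosome 20, which holds 323 tested genes. RPRD1B lies on the same chromosome, and FITM2 is not among its 5 nearest tested genes on either side. CENPA, the histone H3 variant that marks centromeres, was at 13.3 and 15.8 CPM untreated and 20.1 and 22.7 CPM induced, against 19.3 and 15 CPM and then 10.9 and 12.7 CPM in the parent. PEA15, a death effector domain protein that binds ERK, separated the induced libraries from the other 6. It was at 90.3 and 89.4 CPM in RPRD1B_FL_TET and between 58.2 and 69.6 CPM elsewhere (log2 fold change 0.54, SE 0.17, against -0.04, SE 0.17, in the parent). RAB15, a small GTPase of endocytic recycling, was at 4.21 and 7.0 CPM untreated and at 11.1 and 11.6 CPM induced, again above the parent's 4 libraries (6.56 to 10.5 CPM). Both RAB15 and FITM2 met the minimum mean of 10 CPM only through their induced group.

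For the other higher genes the induced level lay within or near the parent's range, and the untreated RPRD1B_FL libraries lay below the untreated FLP libraries. TP53BP1, a DNA double-strand break repair factor, was at 58.6 and 63.0 CPM untreated and at 77.0 and 74.0 CPM induced, while FLP was at 89.7 and 79.9 CPM and FLP_TET at 68.7 and 69.0 CPM. CLK3, a kinase of SR splicing factors, had log2 fold changes of 0.51 (SE 0.23) in RPRD1B_FL and -0.26 (SE 0.21) in the parent. CCDC85C, HINT2 (a mitochondrial histidine triad hydrolase) and D2HGDH (the mitochondrial D-2-hydroxyglutarate dehydrogenase) had log2 fold changes from 0.35 to 0.54 in RPRD1B_FL and from -0.36 to -0.10 in the parent. CENPA, CCDC85C, TP53BP1, HINT2, CLK3 and AATK overlap another tested gene. The strand setting of the counting is not given, so reads of overlapping genes on opposite strands cannot be told apart. CENPA overlaps SLC35F6 on the same strand, where no strand setting separates them. Among genes described below, ZNF276, MRPL40, LARP7, CCNE2 and BACE1 also overlap tested genes on the opposite strand. CDK4, HSP90B1 and SNHG25 overlap tested genes as well, SNHG25 on the same strand.

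**Figure D2:**
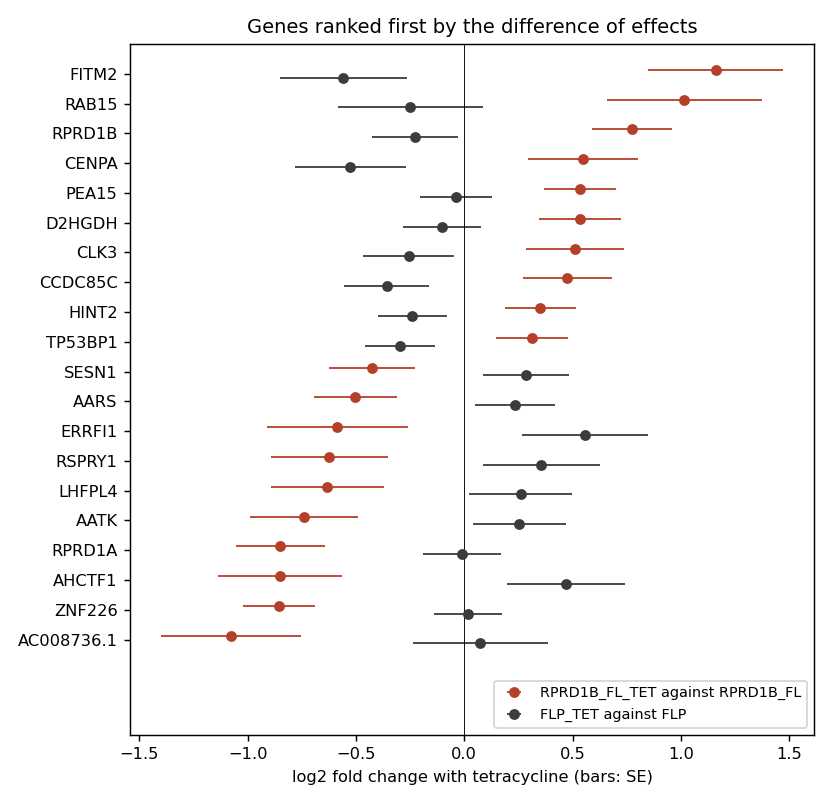
Log2 fold change with tetracycline in RPRD1B_FL (red) and in the parent line (black) for the 20 genes ordered first by the difference of effects, with bars of 1 SE. The rule chose genes whose red and black points lie apart; the parent's points lie at or across 0 from the red ones, and ZNF226 and RPRD1A are near 0 in the parent.

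The 2 tetracycline effects, which share no library, resembled each other. Across the 11948 genes their Spearman correlation was 0.443, and 68.2% of genes had the same sign, given as a description since genes of 1 library share its depth and composition. Of the 122 genes called in the parent, 116 (95.1%) had the same sign in RPRD1B_FL, and all 122 had a smaller effect there. The 95 genes lower in FLP_TET had median effects (log2) of -0.98 in the parent and -0.32 in RPRD1B_FL, and the 27 higher ones of 0.78 and 0.34. The parent's values chose these genes, so their sizes in both lines are given as a description. TPR, a nuclear pore basket protein, was at 232 and 133 CPM in FLP and 81.4 and 74.4 CPM in FLP_TET, and at 96.9 and 139 CPM in RPRD1B_FL and 59.5 and 83.9 CPM in RPRD1B_FL_TET. RAC3 was at 37.2 and 44.6 CPM in FLP and 85.3 and 74.4 CPM in FLP_TET. In the RPRD1B_FL line RAC3 was already at 83.6 and 66.3 CPM untreated and at 101 and 75.7 CPM induced. The untreated RPRD1B_FL libraries thus lay between FLP and FLP_TET for the genes lower in the parent, with medians of -0.66 and -0.42 relative to the FLP mean (log2) against -0.92 and -0.97 in FLP_TET.

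A dependence on base composition moved with both effects. Across 8594 genes, the Spearman correlation of a library's levels, relative to the other libraries, with transcript GC content was 0.20 and -0.50 in RPRD1B_FL and 0.62 and -0.13 in RPRD1B_FL_TET. It was -0.55 and -0.37 in FLP and 0.31 and 0.47 in FLP_TET. The groups overlapped in the RPRD1B_FL line and did not in the parent. Genes at an unadjusted p under 0.05 had a median GC content of 57.5% where they were higher in RPRD1B_FL_TET and of 40.2% where they were lower, against 47.9% for all genes tested. The part of GC content in single results was not tested beyond the GC-corrected fit, in which RPRD1B, RPRD1A and ZNF226 kept their directions in RPRD1B_FL.

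**Figure D3:**
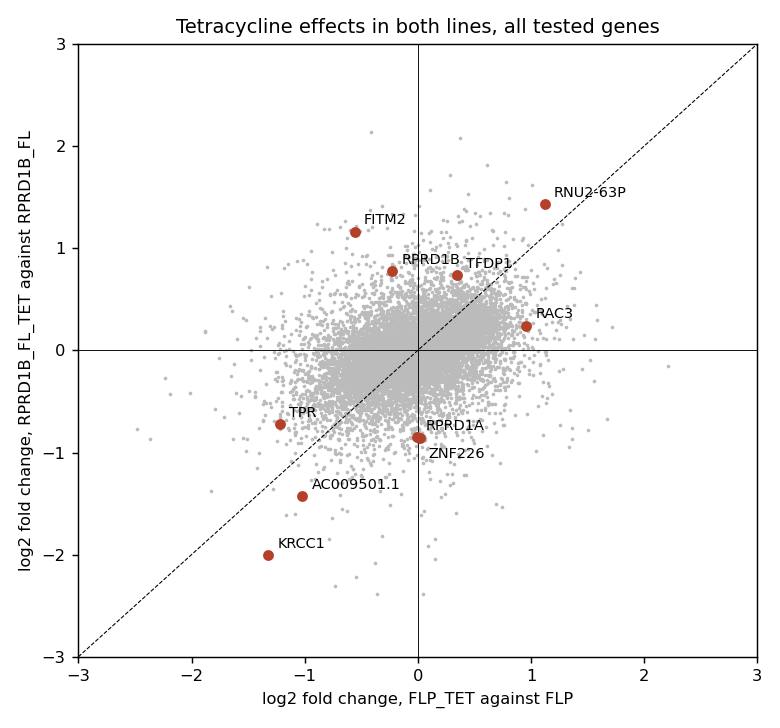
Log2 fold change with tetracycline in RPRD1B_FL (vertical) against the parent line (horizontal) for the tested genes, 1 grey point each, with genes named in the text in red and a dashed line of equal effects; 4 genes lie outside the axes. The cloud tilts along the diagonal, RPRD1A and ZNF226 lie straight below the centre, RPRD1B and FITM2 lie above it to the left, and KRCC1, AC009501.1, RNU2-63P and TFDP1 lie on the same side of 0 in both lines.

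In all, 6 genes were called in RPRD1B_FL under an alternative processing of all 8 libraries, and they were chosen after their values were seen: AC009501.1, BACE1, KRCC1, RNU2-63P, TFDP1 and ZNF226. Apart from ZNF226, they moved the same way in the parent. TFDP1, which encodes DP1, the dimer partner of E2F factors in the G1 to S transition, was at 371 and 321 CPM in RPRD1B_FL and 648 and 507 CPM in RPRD1B_FL_TET, with the parent at 235 and 265 CPM and then 310 and 324 CPM. Its log2 fold changes were 0.74 (SE 0.15, adjusted p = 0.219, edgeR) and 0.34 (SE 0.15), a difference of 0.40 (SE 0.22, adjusted p = 0.991, edgeR). BACE1, the beta-secretase, was at 27.4 and 27.3 CPM untreated and 10.0 and 14.5 CPM induced. Its level in the parent was 37.2 and 31.3 CPM, and then 21.5 and 24.5 CPM with tetracycline. AC009501.1 was at 189 and 129 CPM untreated and 75.3 and 41.9 CPM induced (log2 fold change -1.42, SE 0.26, adjusted p = 0.0969, edgeR, against -1.02, SE 0.27).

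KRCC1 and RNU2-63P are neighbours. KRCC1 (chr2:88027205-88055729, minus strand) was at 8.43 and 15.5 CPM in RPRD1B_FL and at 2.87 and 3.0 CPM in RPRD1B_FL_TET. RNU2-63P (chr2:88016354-88016547, minus strand), a pseudogene of the U2 small nuclear RNA, begins 10657 bases beyond the 3′ end of KRCC1 and was at 11.2 and 16.6 CPM untreated and at 39.8 and 35.1 CPM induced. The 2 neighbours thus went in opposite directions, with log2 fold changes of -2.01 (SE 0.47) and 1.43 (SE 0.26). In the parent KRCC1 was at 20.4 and 10.3 CPM and then 6.78 and 5.08 CPM, and RNU2-63P at 4.74 and 7.21 CPM and then 11.2 and 15.6 CPM. The opposite directions therefore appeared with tetracycline in both lines, and the differences of effects were -0.69 (SE 0.62) and 0.31 (SE 0.42). Whether the reads at RNU2-63P belong to transcripts of KRCC1 was not tested.

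Gene lists covering the transcription machinery and the pathways tied to RPRD1B held no called gene in RPRD1B_FL. Among 6 genes with a CTD-interaction domain, the 2 at an unadjusted p under 0.05 were RPRD1B (higher) and RPRD1A (lower). None of 12 tested RNA polymerase II subunits, 22 elongation factors, 21 cleavage and polyadenylation factors or 8 CTD phosphatases reached an unadjusted p under 0.05, and their median log2 fold changes were 0.11, 0.05, -0.01 and 0.02. Among 15 CTD kinases and partners, CDK12, which phosphorylates the CTD during elongation, was at 91.3 and 88.4 CPM untreated and 122 and 116 CPM induced (log2 fold change 0.41, SE 0.16, unadjusted p = 0.0173, adjusted p = 0.788, edgeR). CDK12 in the parent differed by 0.10 (SE 0.16), with libraries that overlapped. LARP7, a subunit of the 7SK particle that holds P-TEFb inactive, was lower in both lines, at -0.51 (SE 0.24) and -0.78 (SE 0.23). In the Integrator complex, 1 of 11 tested subunits, INTS5, was higher at an unadjusted p under 0.05 (0.57, SE 0.22), and in the parent it differed by 0.82 (SE 0.23).

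The Wnt list, which holds feedback and target genes of beta-catenin, had 0 of 13 tested members at an unadjusted p under 0.05 and a median of -0.06. Of 19 G1 and S phase genes, CDK4 (0.45, SE 0.19) and the licensing factor CDT1 (0.38, SE 0.18) were higher and cyclin E2, CCNE2 (-0.94, SE 0.45), was lower at an unadjusted p under 0.05. All 3 had the same sign in the parent, at 0.67, 0.65 and -0.87. Of 14 G2 and M phase genes, the mitotic kinase AURKB was higher (0.32, SE 0.15) and the kinetochore protein CENPF lower (-0.37, SE 0.17), and in the parent they differed by 0.52 and -0.64. By the difference of effects, other members had an unadjusted p under 0.05 (all at an adjusted p of 0.991, edgeR). Above 0 were 2 of 19 G1 and S phase (10.5%), 1 of 14 G2 and M phase (7.14%) and 1 of 13 Wnt genes (7.69%). The share of all genes was 2.50%. Several other lists held such members, among them 5 of 80 cytosolic ribosomal protein genes (6.25%, with 1 below 0). Respiratory chain subunits had 4 of 75 (5.33%) and mitochondrial ribosomal proteins 3 of 74 (4.05%), so these lists were not alone in it. CCNA2, cyclin A2, was at 54.8 and 68.2 CPM untreated and 62.7 and 74.0 CPM induced, against 79.9 and 63.2 CPM and then 45.7 and 49.9 CPM in the parent, a difference of 0.73 (SE 0.26). CCND1, cyclin D1, which is also in the Wnt list, was at 63.6 and 73.3 CPM untreated and 72.4 and 79.6 CPM induced, against 85.3 and 72.1 CPM and then 61.7 and 60.7 CPM in the parent, a difference of 0.51 (SE 0.24). MCM3, a subunit of the replicative helicase, differed by 0.47 (SE 0.22), from -0.18 in RPRD1B_FL and -0.66 in the parent. For these 3 genes the libraries of RPRD1B_FL and RPRD1B_FL_TET overlapped, and those of FLP and FLP_TET did not.

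In stress and metabolic lists, single members were lower at an unadjusted p under 0.05, against 3.19% of all genes. In lists of this size 1 gene alone exceeds that share. In the p53 list it was 1 of 14 tested genes (7.14%, SESN1) and in the ATF4 list 1 of 17 (5.88%, AARS). SESN1 and AARS belong to the genes described above. HMGCS1, an enzyme of cholesterol synthesis, was the only one of 19 lipid synthesis genes (5.26%; log2 fold change -0.42, SE 0.18). HSP90B1, an endoplasmic reticulum chaperone, was the only one of 13 chaperone genes (7.69%; -0.34, SE 0.14). Both were lower in the parent too, at -0.70 and -0.30. None of 7 tested immediate early, 3 interferon response or 6 BMP and ID genes reached an unadjusted p under 0.05.

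Of 74 mitochondrial ribosomal protein genes, 4 were higher and 0 lower at an unadjusted p under 0.05, against 2.95% and 3.19% of all genes. They were MRPL10, MRPL41, MRPL40 and MRPL4. MRPL40 was the one with the larger effect in RPRD1B_FL: it was at 34.1 and 35.0 CPM untreated and 46.2 and 49.2 CPM induced (0.46, SE 0.19), and differed by 0.16 (SE 0.18) in the parent. Of 75 nuclear genes for respiratory chain subunits, 2 were higher (2.67%, COX8A and ATP5G1) and 1 lower (1.33%, SDHC), below the shares of all genes. COX8A and ATP5G1 (0.39 each) were higher in the parent too, at 0.59 and 0.62. SDHC (-0.45) was lower there as well, at -0.34. Among the cytosolic ribosomal protein genes, RPS7 was lower at an unadjusted p under 0.05 (-1.02, SE 0.40, against -0.92, SE 0.40, in the parent); it was under 10 CPM in every library and has processed pseudogenes with which reads may be shared. HIST1H1D was the 1 higher gene of 14 tested replication-dependent histones (7.14%), on 7 and 3 counts untreated and 23 and 6 counts induced. SNHG9 and SNHG25 were the 2 higher of 17 small nucleolar RNA host genes (11.8%). All were higher in the parent too. HIST1H1D was at 1.01 (SE 0.64) there against 1.62 (SE 0.61) in RPRD1B_FL, SNHG9 at 0.60 against 0.46 and SNHG25 at 0.70 against 0.34. The 13 mitochondrially encoded messenger RNAs are listed at 0 in all libraries.

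The zinc finger genes were the list with the most members. Of 331 tested genes named ZNF, 13 were higher (3.93%) and 21 lower (6.34%) at an unadjusted p under 0.05, against 2.95% and 3.19% of all genes. Their median log2 fold change was -0.10 in RPRD1B_FL and -0.13 in the parent. ZNF276 was at 40.7 and 41.3 CPM untreated and 72.4 and 65.9 CPM induced, above the parent's libraries, which lay between 33.8 and 50.3 CPM (0.76, SE 0.20, unadjusted p = 8.74e-04, adjusted p = 0.641, edgeR). ZNF148, which encodes ZBP-89, was at 29.1 and 33.5 CPM untreated and 16.5 and 22.2 CPM induced (-0.70, SE 0.23, against -0.12, SE 0.22). ZNF267 was at 18.6 and 22.1 CPM and then 7.17 and 15.4 CPM (-0.88, SE 0.30). It was lower in the parent too, at 16 and 16.1 CPM and then 12.1 and 13.3 CPM (-0.34, SE 0.28). The low median of the list was thus shared by both lines, whereas ZNF226, ZNF276 and ZNF148 had small effects in the parent.

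**Figure D4:**
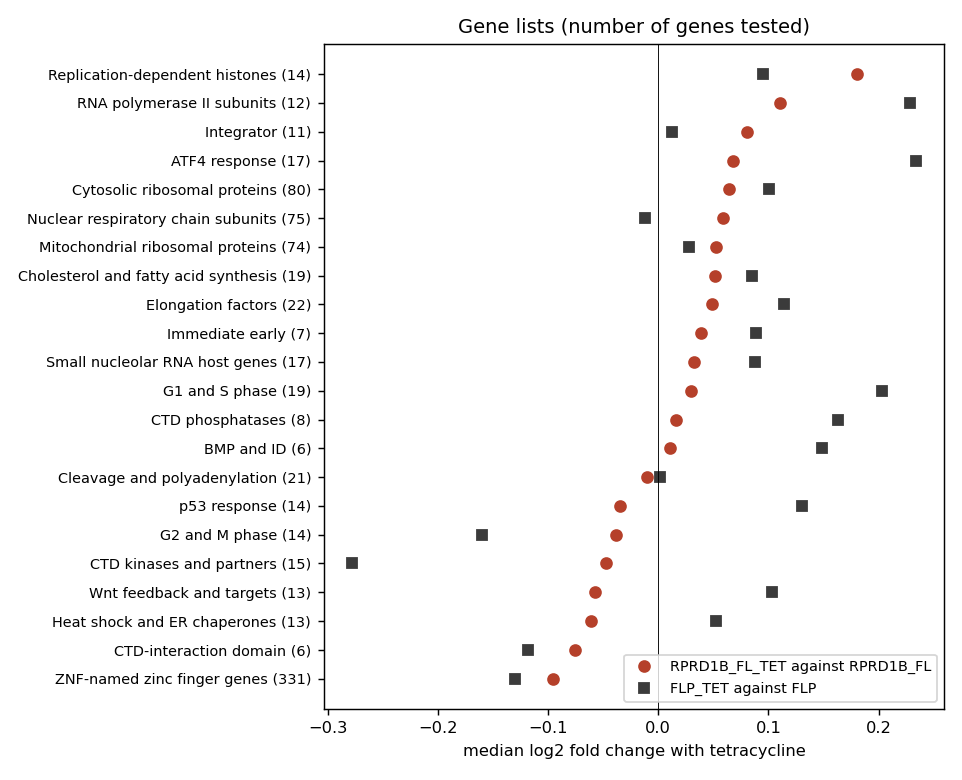
Median log2 fold change with tetracycline of each gene list with 6 or more genes tested, cell type markers left out, in RPRD1B_FL (red circles) and in the parent line (black squares), with the number of genes tested in brackets. Among the lists drawn, the medians lie between -0.10 and 0.18 in RPRD1B_FL and between -0.28 and 0.23 in the parent, and no list holds a called gene in RPRD1B_FL.

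Genes were also grouped by annotated class, after the values were seen. The 288 tested genes that GENCODE 29 classes as antisense, long RNAs transcribed from the strand opposite a protein-coding gene, summed to 3928 and 3894 CPM in RPRD1B_FL and to 4248 and 4172 CPM in RPRD1B_FL_TET. In the parent they summed to 4115 and 4038 CPM in FLP and to 3787 and 3815 CPM in FLP_TET. Both induced libraries lay above all others and both FLP_TET libraries below all others. The change of the mean sum was 7.66% with induction and -6.76% with tetracycline in the parent. Protein-coding genes had 4.18% and 5.01%, and long intergenic RNAs (lincRNA) -1.46% and -20.8%. Abundant members weigh most in such a sum. ZFAS1 was at 253 and 155 CPM in FLP and at 137 and 138 CPM in FLP_TET. HOXA11-AS was at 206 and 199 CPM in RPRD1B_FL and at 307 and 221 CPM in RPRD1B_FL_TET, while the more abundant AC074033.1 was lower with tetracycline in both lines. Of the 288 antisense genes, 178 were higher with tetracycline in RPRD1B_FL and 134 in the parent. The median log2 fold change of the class was 0.14 in RPRD1B_FL and -0.04 in the parent, and the median difference of effects was 0.20, against 0.00 for protein-coding genes in each line and -0.02 for their difference.

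In counts, 21 antisense genes were higher and 3 lower at an unadjusted p under 0.05 in RPRD1B_FL (7.29% higher, against 2.75% of the 10825 protein-coding genes). In the parent 6 of the 288 were higher (2.08%) and 28 lower, where 11.1% of all genes were higher and 11.6% lower. The lower antisense genes in the parent thus did not exceed the share of all genes, and the higher ones fell short of it. For the difference of effects 11 were above 0 and 0 below at an unadjusted p under 0.05, and none was called. These counts move with the processing. In RPRD1B_FL they were 22 and 1 in the GC-corrected fit, 10 and 0 with DESeq2, 11 and 0 without the second RPRD1B_FL library, 12 and 4 without the first RPRD1B_FL_TET library and 28 and 11 without the second. For the difference they were 22 and 0 in the GC-corrected fit, 3 and 0 with DESeq2, 22 and 2 without the second FLP library and 22 and 7 without the first RPRD1B_FL_TET library. AP000692.2, on chromosome 21, was at 7.72 and 7.74 CPM in RPRD1B_FL and at 20.8 and 17.5 CPM in RPRD1B_FL_TET, and its parent libraries lay between 4.71 and 7.31 CPM. AC010531.6, on chromosome 16, was at 2.81 and 3.68 CPM untreated and 7.53 and 8.99 CPM induced, with 4.72 to 5.47 CPM in the parent. The induced libraries were the highest for both genes, which had the smallest unadjusted p of the class in RPRD1B_FL (edgeR). This separation follows in part from that choice. The log2 fold change of AP000692.2 was 1.31 (adjusted p = 0.268, edgeR) against 0.55 in the parent. For AC010531.6 it was 1.33 (adjusted p = 0.788, edgeR) against -0.13. Antisense genes were of low abundance (a median log2 CPM of 2.75, against 4.77 for protein-coding genes). Without the strand setting of the counting, their reads cannot be told apart from those of the genes they overlap.

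Other noncoding classes shared part of this pattern. The 204 tested lincRNA genes had median effects (log2) of 0.11 in RPRD1B_FL and -0.05 in the parent, with 14 higher (6.86%) and 8 lower at an unadjusted p under 0.05 under induction. Their median difference of effects was 0.15, with 14 genes above 0 (6.86%) and 3 below at an unadjusted p under 0.05. Their sums did not separate the groups of the RPRD1B_FL line: 4368 and 4902 CPM untreated against 4321 and 4814 CPM induced. For 164 processed pseudogenes the medians were -0.02 and -0.14, and their median difference was 0.15, with 11 genes above 0 (6.71%) and 0 below. For 60 processed transcripts the medians were 0.04 and -0.05, and the median difference was 0.09. The corresponding share of antisense genes above 0 in the difference was 3.82%, so the class was not alone in it.

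**Figure D5:**
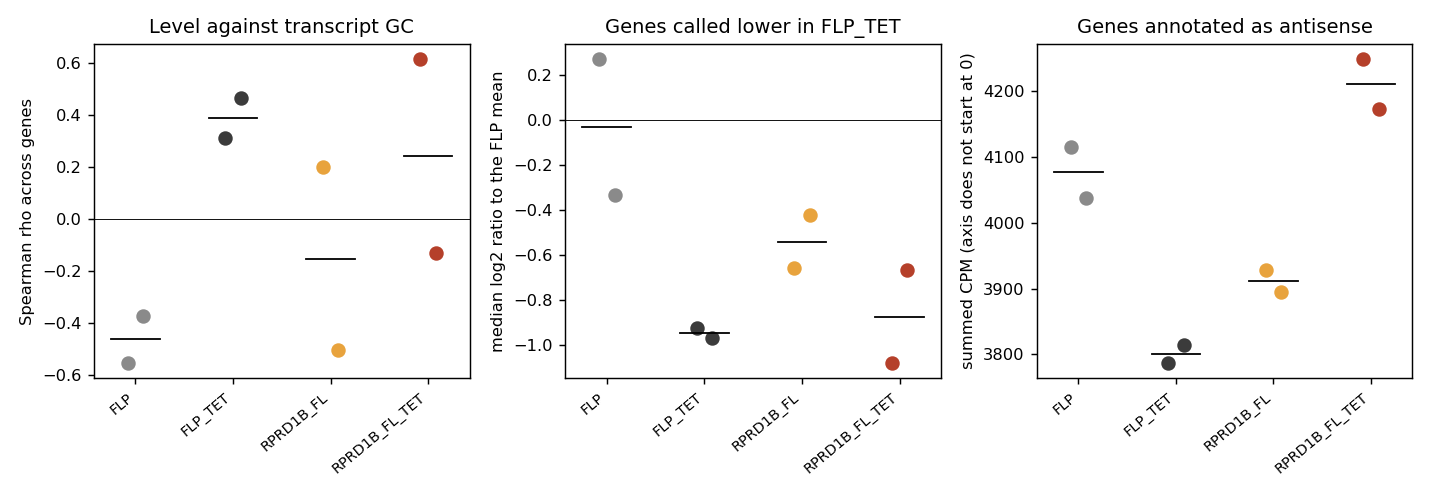
The 3 panels give summaries by library, with dots for the 8 libraries and lines for group means: the Spearman correlation of levels with transcript GC content across genes, the median log2 ratio to the FLP mean of the 95 genes called lower in FLP_TET, and the summed CPM of 288 antisense genes on an axis that does not start at 0. The RPRD1B_FL groups overlap in the first, the second RPRD1B_FL_TET library is close to RPRD1B_FL in the second, and the antisense sum is higher with tetracycline in RPRD1B_FL and lower in the parent.

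Silencing RPRD1B in HEK293T cells, which shares no sample with the induction, gave effects that tended weakly to the opposite sign. Across 11107 genes tested in both, the Spearman correlation of the induction effect with the RPRD1B_KD effect was -0.139, and 55.3% of genes had opposite signs. Of 680 genes at an unadjusted p under 0.05 under induction, 420 (61.8%) had the opposite sign under RPRD1B_KD. Under RPRD1A_KD, whose control samples are the same, the correlation was -0.106 and the share 63.8%, and under RPRD2_KD they were -0.102 and 58.7%. RPRD1A_RPRD2_KD went the other way, with 0.127 and 37.9%, so the tendency was neither shared by all siRNA groups nor limited to those for RPRD1B. Of the 10 higher genes described above, 4 had the opposite sign under RPRD1B_KD: TP53BP1, RAB15, PEA15 and RPRD1B, the siRNA target itself. Of the 8 lower genes measured there, 4 did. RAB15 (-0.70, SE 0.30) and PEA15 (-0.44, SE 0.19) were higher with induction and lower with RPRD1B_KD, as RPRD1B itself was, at an adjusted p of 1 for both in edgeR's test. Under RPRD1A_KD, 8 of the 10 higher genes and 4 of the 8 lower genes had the opposite sign. RAB15 (-0.30, SE 0.30) and PEA15 (-0.27, SE 0.19) were lower there too, so their direction was not particular to RPRD1B_KD.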

How the data were processed

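The authors deposited raw read counts for 58138 gene names, 1 table per sample. FastQC, STAR, HTSeq, DESeq2 and GRCh38 are named, without roles, versions or strand setting, per the submitters' processing notes. The closing rows for reads outside genes were left out of library sizes and tests (reads outside genes were 15.3% to 19.5% of the sum of all rows). The 8 Flp-In T-REx 293 samples entered 1 fit (edgeR 4.0.16 and limma 3.58.1 under R 4.3.3): filterByExpr (minimum count 10, minimum total 15), TMM scaling, quasi-likelihood tests of RPRD1B_FL_TET against RPRD1B_FL, FLP_TET against FLP and their difference, with Benjamini-Hochberg adjustment over all genes and calls under 0.05. The fit was tested on simulated data. SE is of the log2 fold change.

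Named genes were the RPRD genes; up to 10 higher and 10 lower genes by the p of the difference, with libraries that do not overlap, a larger effect than the parent's of the sign of the difference, and a mean of 10 CPM or more in the higher RPRD1B_FL group; up to 3 higher and 3 lower genes called in the parent; and up to 4 members of a list at an unadjusted p under 0.05. The members and lists were chosen with earlier results of these data known. GENCODE 29 gave coordinates, classes and GC content by name (54848 names matched). Alternatives were RLE size factors, DESeq2 1.42.0 with and without independent filtering, no filter, a mean count of 50 or more, only the groups compared, a replicate block, a GC correction (lowess, span 0.3) with and without the block, a minimum log2 change of 1 in size, and omission of each library. No batch or date is given in the labels, and no sequence is printed because no result turns on one. Part of 1 list is not reported here.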

Additional observations from a re-analysis of the deposited data

Results flagged for a closer look

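The summed CPM of the 288 antisense genes was flagged because every library moved one way in 1 line and the opposite way in the other: its change with tetracycline was 7.66% in RPRD1B_FL, where both induced libraries exceeded both untreated ones, and -6.76% in the parent, where both treated libraries lay below both untreated ones. The difference was not tested, since 2 samples a group are too few for an exact test, and the class was chosen after its values were seen. Abundant members weigh most in the sum, so it does not describe all 288 genes alike. Of these genes, 178 were higher with tetracycline in RPRD1B_FL and 134 in the parent.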

How the results depend on the processing

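With induction, 0 genes were called in RPRD1B_FL; 6 were called with no filter on low counts and 3 under the GC correction, alone or with the replicate block, and leaving out single libraries gave 0 to 74. The difference of effects gave 0 to 5 calls when single libraries were left out; the 5 appeared without the second FLP library (MALAT1, RPL26, RPAIN, NDUFA1 and EMC4). In the parent, the 122 calls became 48 at a log2 change of 1 or more in size, 250 with DESeq2 (34 without its independent filtering), 762 with no filter, 0 at a mean count of 50 or more, 1273 with only the groups compared, and 0 to 681 when single libraries were left out. The replicate block gave 1 call in the parent and, with the GC correction, 213; it changed no other count of calls from 0. Over 6 pairs of groups, same-numbered samples correlated at 0.46 between RPRD1B_FL and RPRD1B_FL_TET and at -0.36 to 0.08 wherever a parent group was included. The numbers were therefore not taken to pair samples across all groups. Since the replicate block was common to the 8 libraries, a pairing within the RPRD1B_FL line alone was not tested. Among single genes, 12 of their values reversed sign. RPRD1A in the parent, -0.01, became 0.0067 with no filter, 0.31 under both GC corrections, and -0.204 to 0.183 when single libraries were left out. Leaving out single libraries moved the difference for RPRD2 between -0.0514 and 0.0085, the effects in RPRD1B_FL of PFKL between -0.0532 and 0.416 and of AC093297.3 between -0.801 and 0.531 (both genes called in the parent), and the difference for RNU2-63P between -0.0494 and 0.609. The median of the antisense genes kept its sign in the 13, 13 and 16 alternatives run, between 0.09 and 0.17 in RPRD1B_FL, -0.15 and -0.0036 in the parent and 0.16 and 0.25 for the difference. The cause of these shifts was not tested. Where 1 sample was left in a group, it was assumed to vary like the other groups. At these depths, genes near 1 CPM rest on about 3 counts, and with 2 samples a group only large or even differences can pass.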
